A study of Mus musculus with 4 samples.

Results

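The cell cycle and DNA replication genes described here are 43 listed genes of S phase and mitosis: 17 of DNA replication, 4 regulators of the step from G1 to S phase, and 22 of mitosis. They were chosen by name, as the rows of the array table that carry 1 gene symbol from the list, and rows of 1 gene were averaged. Of the 43 genes, 41 had such a row, out of 22180 genes named on the array. The row of Ccne2, which encodes cyclin E2, also carries the name of a second gene, and no row used here carries the name of Ccnb1, which encodes cyclin B1, so these genes are not among the counts below. RNA was hybridised to 4 arrays of the type Affymetrix Mouse Gene 2.0 ST, with 1 array for each group, namely Tbx1 knockout (KO) head and wild-type (WT) head at embryonic day 12.5 (E12.5), and Tbx1 KO palatal shelves and WT palatal shelves at E13.5. All embryos had the mixed C57BL/6J x FVB/N background, and Tbx1 encodes a T-box transcription factor of the pharyngeal apparatus. The labels give neither the design of the knockout allele nor whether embryos were pooled. Head and shelf samples also differ in stage.

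The levels are log2 values made with RMA (robust multi-array average), so a difference of 1 is 2-fold. A gene entered a pair of arrays when the higher of its 2 levels reached 6.159, which is the median level of named genes on these arrays. Of the 41 genes with a row, 40 entered, and each of these 40 was above that limit on all 4 arrays. The other was Rrm2, whose 2 rows differ greatly in brightness. With 1 array a group, a difference within a tissue has no replicate check and no p-value. As a yardstick, 2 bright rows of 1 gene gave differences that disagreed with an SD of 0.176 per row in the head and 0.226 in the shelves. Tbx1 itself was at 6.25 in KO head and 6.83 in WT head, and at 6.18 in KO shelves and 7.39 in WT shelves. Xist was at 10.04 in KO head and 11.10 in WT head, and Eif2s3y of the Y chromosome at 8.50 in KO head and 7.09 in WT head. The head arrays therefore differ in sex-linked genes as well as in genotype, and what part this has in the results below was not tested.

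The cell cycle runs on waves of transcription. Late in G1, cyclin E with Cdk2 frees the E2F factors from the RB family, and E2F then drives the genes that load and fire replication origins and supply nucleotides. Later, the MuvB complex with B-Myb and FoxM1 turns on the genes of mitosis through the cell cycle genes homology region (CHR), often beside CCAAT boxes bound by NF-Y. In the embryonic face, growth of the palatal shelves depends on dividing mesenchyme, and dividing neural progenitors add to these RNAs in a whole head. Bulk RNA cannot tell fewer dividing cells from less RNA of these genes in each cell.

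Promoter sequences of the replication and mitosis genes were compared by a search for short elements. They are printed for the 3 replication genes and the 3 mitosis genes with the largest mean difference between knockout and wild type among those with a listed promoter. Each runs from 250 bases before to 50 bases after the start of the gene, taken from RefSeq on GRCm38.p6. Both strands were searched, and capitals mark every match. The letters were TTTCCCGC, TTTCGCGC, TTTGCCGC or TTTGGCGC for an E2F site. For a CHR element they were TTTGAA or, in place of it, TTTAAA. The box called CCAAT was searched by the letters of its name and the TATA box as TATAAA. No 2 matches overlapped in the printed promoters.
Mcm3 at chr1:20820263-20820562 on the minus strand: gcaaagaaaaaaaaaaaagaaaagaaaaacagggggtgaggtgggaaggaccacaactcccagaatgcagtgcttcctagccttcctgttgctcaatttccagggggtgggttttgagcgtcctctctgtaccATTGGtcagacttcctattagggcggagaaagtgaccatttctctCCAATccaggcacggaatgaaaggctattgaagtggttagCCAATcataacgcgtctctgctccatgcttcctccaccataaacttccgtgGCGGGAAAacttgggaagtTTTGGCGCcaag
Pcna at chr2:132253131-132253430 on the minus strand: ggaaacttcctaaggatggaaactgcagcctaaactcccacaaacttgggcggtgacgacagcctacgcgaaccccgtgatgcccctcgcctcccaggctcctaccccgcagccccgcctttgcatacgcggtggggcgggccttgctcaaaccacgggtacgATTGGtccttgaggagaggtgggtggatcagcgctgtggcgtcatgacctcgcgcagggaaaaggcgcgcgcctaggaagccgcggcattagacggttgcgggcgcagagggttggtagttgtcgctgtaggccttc
Mcm2 at chr6:88898731-88899030 on the minus strand: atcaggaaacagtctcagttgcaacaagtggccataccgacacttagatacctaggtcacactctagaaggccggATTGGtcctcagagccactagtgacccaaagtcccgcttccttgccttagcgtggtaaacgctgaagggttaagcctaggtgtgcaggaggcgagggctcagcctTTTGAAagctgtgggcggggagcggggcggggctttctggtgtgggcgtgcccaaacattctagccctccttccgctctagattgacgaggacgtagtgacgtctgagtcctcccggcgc
Ttk at chr9:83834439-83834738 on the plus strand: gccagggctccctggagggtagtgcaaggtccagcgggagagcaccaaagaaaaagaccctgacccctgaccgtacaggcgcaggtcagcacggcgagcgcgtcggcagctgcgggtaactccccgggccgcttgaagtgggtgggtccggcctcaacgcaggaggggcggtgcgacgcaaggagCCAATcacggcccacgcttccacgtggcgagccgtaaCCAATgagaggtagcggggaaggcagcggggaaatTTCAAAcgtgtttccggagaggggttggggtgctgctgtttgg
Cenpe at chr3:135212313-135212612 on the plus strand: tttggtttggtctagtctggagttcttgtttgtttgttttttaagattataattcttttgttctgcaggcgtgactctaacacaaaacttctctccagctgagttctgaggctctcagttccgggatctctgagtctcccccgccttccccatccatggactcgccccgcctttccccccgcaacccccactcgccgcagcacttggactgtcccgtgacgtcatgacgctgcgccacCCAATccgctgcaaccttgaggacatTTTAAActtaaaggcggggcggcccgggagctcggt
Kif11 at chr19:37376132-37376431 on the plus strand: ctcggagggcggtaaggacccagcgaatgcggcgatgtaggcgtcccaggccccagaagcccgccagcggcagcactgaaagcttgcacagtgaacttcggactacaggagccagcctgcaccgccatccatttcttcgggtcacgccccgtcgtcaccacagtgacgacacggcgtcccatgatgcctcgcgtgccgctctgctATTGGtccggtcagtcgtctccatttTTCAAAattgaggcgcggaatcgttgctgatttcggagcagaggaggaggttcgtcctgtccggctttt

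The Mcm3 promoter held 3 CCAAT boxes and, 20 and 39 bases after the start, 2 E2F sites. The Pcna promoter held 1 CCAAT box and no E2F site by these letters. The Mcm2 promoter held no E2F site either, but a CHR element 70 bases before the start and a CCAAT box 175 bases before it. In the 3 mitosis promoters a CHR element lay within 19 bases of the start with a CCAAT box upstream of it: in Ttk 8 bases after the start, in Cenpe 15 bases after it and in Kif11 19 bases before it. A promoter was listed for 35 of the 43 genes, and a gene was counted when any listed promoter held the letters. The shares over all promoters count single promoters, so a gene with several listed promoters had more chances to match. E2F sites were found for 7 of 14 replication genes (Cdc6, Cdt1, Mcm3, Mcm5, Mcm6, Mcm7 and Pola1) and for 1 of 18 mitosis genes (Cdk1), beside 2.26% of all 32851 promoters of the same length. CHR elements were found for 16 of 18 mitosis genes and 4 of 14 replication genes, beside 27.6% of all promoters. CCAAT boxes were found for 16 of 18 mitosis genes and 10 of 14 replication genes, beside 37.4%. No listed promoter of these genes held TATAAA, which 13.6% of all promoters did. A match describes the letters in this window and is no evidence of binding.

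In the E12.5 head, most replication and mitosis genes were slightly lower in the knockout array than in the wild-type array. The difference was below 0 for 33 of 40 genes, against 55.5% of all 11364 genes that entered, and its median was -0.091 (1.07-fold), against -0.017 over all genes. By role, mitotic kinases and spindle proteins had the lowest medians, while Cdk1 and cyclin A2 were above 0 under all 4 scalings tried. The 3 nucleotide enzymes that entered were near 0, on either side of it depending on the scaling. Rrm2, another nucleotide enzyme, did not enter, and its brighter row had a head difference of -0.31. No difference was large. From 1.2-fold on, 1 of the 40 genes was lower (E2f8) and 0 were higher, against 4.4% of all genes lower and 3.37% higher, so the share past this fold was near the background or under it. The difference exceeded the probe set yardstick for 6 of the 40 genes (Gins2, E2f8, Aurka, Kif11, Birc5 and Nusap1), a share under the 20.3% of all genes that did.

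E2f8, an atypical E2F that represses E2F targets late in S phase, was at 7.88 in KO head and 8.23 in WT head, a 1.27-fold lower level. On the shelf arrays it was at 8.21 in KO and 8.15 in WT, so the lower level was seen in the head pair only, a contrast that was not tested. E2f1, an activator of S phase genes, was at 7.28 in KO head and 7.26 in WT head.

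Among the replication genes, the MCM helicase and its loaders were all lower in the head. All 6 of Mcm2 to Mcm7, the subunits of the replicative helicase, were below 0 (5 of 6 after quantile normalization again or cyclic loess, which put Mcm5 above 0), with a median of -0.11 and values between -0.15 (Mcm3) and -0.0036 (Mcm5). Mcm2 was at 9.35 in KO head and 9.51 in WT head, and Mcm3 at 9.30 in KO head and 9.46 in WT head. Cdc6 and Cdt1, which load the helicase, and Gins1 and Gins2, which belong to its active form, were below 0 too, under all 4 scalings. Of the replication genes that entered, Gins2 had the lowest value, with 7.42 in KO head and 7.65 in WT head (-0.24). The brighter row of Rrm2, which did not enter, was lower still (-0.31). Thymidylate synthase (Tyms, 0.0059), thymidine kinase (Tk1, 0.012) and the catalytic subunit of polymerase alpha (Pola1, 0.013) had the highest values of the class and differed hardly at all.

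Of the mitosis genes, the 6 mitotic kinases Aurka, Aurkb, Plk1, Bub1, Bub1b and Ttk were all below 0 in the head under all 4 scalings, with a median of -0.16. Aurka, the kinase of the spindle poles, was at 8.43 in KO head and 8.65 in WT head (-0.21). Kif11, the motor that pushes spindle poles apart, was at 9.55 in KO head and 9.79 in WT head (-0.24). Birc5, the survivin subunit of the chromosomal passenger complex, was at 7.17 in KO head and 7.39 in WT head (-0.22). These were the lowest values of the mitosis class. At its other end were Cdk1, the main mitotic kinase (8.57 in KO head and 8.50 in WT head), Ccna2, cyclin A2 (10.18 in KO head and 10.12 in WT head), and Ube2c, a ubiquitin-conjugating enzyme of the anaphase-promoting complex (9.03 in KO head and 8.99 in WT head). Cdc20, the activator of that complex, was at 9.50 on both head arrays.

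**Figure D1:**
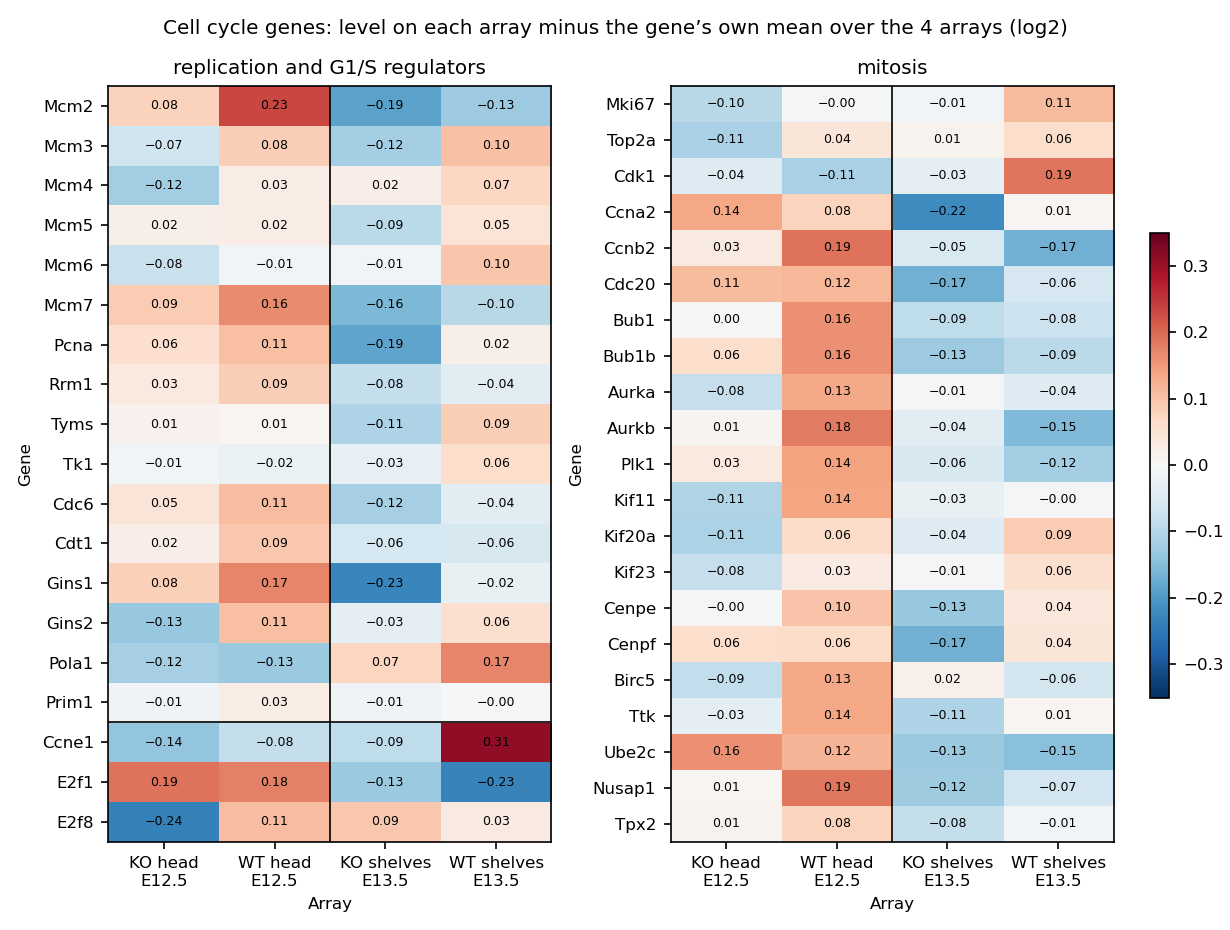
Level of each of the 40 genes on each array (columns: KO head, WT head, KO shelves, WT shelves) minus the gene's own mean over the 4 arrays, in log2 units and printed in each cell, with replication genes and G1/S regulators on the left and mitosis genes on the right. Red is above and blue below the gene's mean. The WT head column is red for most mitosis genes and the KO shelves column is blue for most replication genes.

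In the E13.5 palatal shelves, the replication genes were lower in the knockout array, and the mitosis genes were split. The difference was below 0 for 16 of 16 replication genes (14 of 16 with each array centred on its median, which put Cdt1 and Prim1 above 0) and 15 of 21 mitosis genes, in all 32 of 40, against 44.8% of all 11449 genes that entered. The median of the 40 was -0.068 (1.05-fold), against 0.021 over all genes. From 1.2-fold on, 1 gene was lower (Ccne1) and 0 were higher, against 6.83% of all genes lower and 11.2% higher. Ccne1 was also the 1 gene clearly beyond the probe set yardstick of 0.226, which 23.2% of all genes exceeded. Ccna2, at -0.2261, lay at that yardstick.

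Ccne1, the cyclin E1 that starts S phase with Cdk2, was at 7.31 in KO shelves and 7.71 in WT shelves, a 1.32-fold lower level and the largest difference of the 40 genes in either tissue. Of the 4 arrays, the WT shelves stood apart for this gene, since KO head was at 7.26 and WT head at 7.32. E2f1 had the highest value of the G1/S regulators in the shelves, with 6.95 in KO and 6.85 in WT (0.10).

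Mcm3 was at 9.25 in KO shelves and 9.48 in WT shelves (-0.22), the lowest value of the replication class. Pcna, the sliding clamp of the replication polymerases, was at 10.19 in KO shelves and 10.39 in WT shelves (-0.20), and Gins1 at 6.21 in KO shelves and 6.41 in WT shelves (-0.20). Tyms, level in the head, was at 8.30 in KO shelves and 8.50 in WT shelves (-0.20). The differences nearest to 0 were those of Cdt1 (-0.0064), the primase subunit Prim1 (-0.011) and Rrm1, the large subunit of ribonucleotide reductase (-0.046). The 6 MCM genes were again all below 0, under each of the 4 scalings, between -0.22 and -0.050, with a median of -0.083.

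The mitosis genes that were lowest in the shelves were not those that were lowest in the head. Ccna2 was at 9.82 in KO shelves and 10.05 in WT shelves (-0.23), Cdk1 at 8.58 in KO shelves and 8.80 in WT shelves (-0.22), and Cenpf, a kinetochore protein, at 8.84 in KO shelves and 9.05 in WT shelves (-0.21). Above 0 were Aurkb, the kinase of the chromosomal passenger complex (8.65 in KO shelves and 8.54 in WT shelves), Ccnb2, cyclin B2 (9.42 in KO shelves and 9.30 in WT shelves), and Birc5 (7.27 in KO shelves and 7.19 in WT shelves). Plk1 (0.065), Aurka (0.037) and Ube2c (0.017) were above 0 as well. Aurkb, Ccnb2, Birc5, Plk1 and Aurka were thus lower in the knockout head and slightly higher in the knockout shelves. Their shelf differences were all smaller than the probe set yardstick of 0.226. Aurka was below 0 in the shelves after quantile normalization again. Of the 21 mitosis genes, 13 were below 0 in both tissues, among them the kinases Bub1, Bub1b and Ttk.

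**Figure D2:**
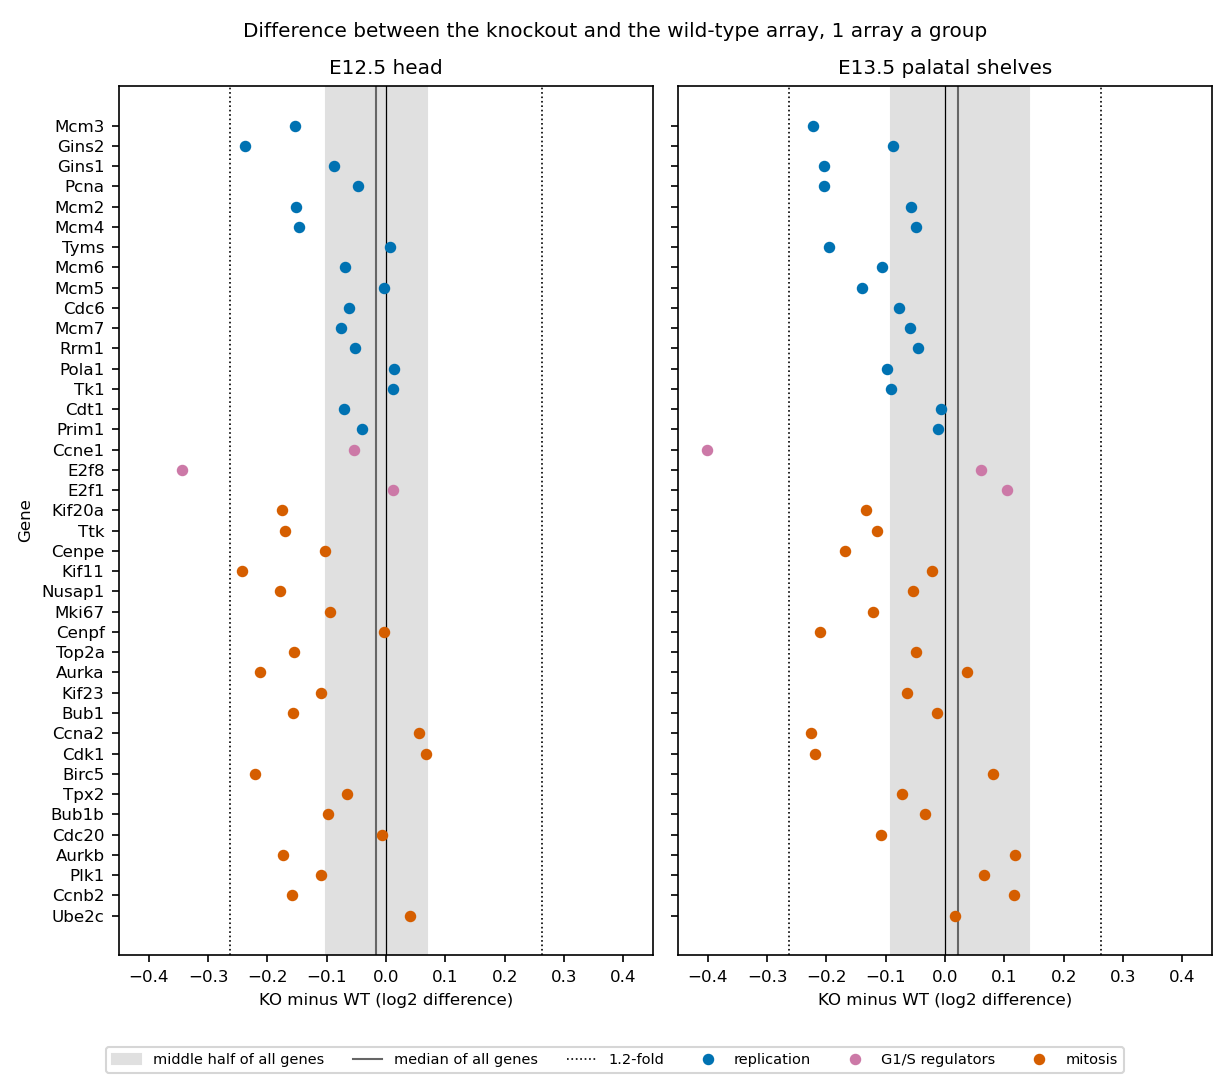
KO minus WT difference (log2) of each of the 40 genes in the E12.5 head (left) and the E13.5 palatal shelves (right), 1 point per gene, in order of the mean difference within each class. The grey band spans the quartiles of all genes that entered, the grey line is their median and the dotted lines mark 1.2-fold. Most points lie left of 0, and only E2f8 in the head and Ccne1 in the shelves lie beyond 1.2-fold.

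Set side by side, 27 of the 40 genes were below 0 in both tissues and 2 (E2f1 and Ube2c) above 0 in both, against 25.5% and 25.7% of the 10814 genes that entered both pairs. The replication genes were below 0 in both tissues in 13 of 16 cases, the other 3 (Tyms, Tk1 and Pola1) being slightly above 0 in the head. The mitosis genes were below 0 in both in 13 of 21 cases. The highest of the 4 arrays was a wild-type array for 37 of the 40 genes, against 51.6% of all genes. It was the WT head array for 24 of them, against 29.8% of all genes, and the KO shelves array for 0, against 26.2%. The WT head array was the lowest for 2 of the 40, against 20.1% of all genes. Kif20a, a kinesin of cytokinesis, was below 0 in both tissues and highest on the WT shelves array. It was at 9.49 in KO head and 9.66 in WT head, and at 9.55 in KO shelves and 9.69 in WT shelves. Mki67, which encodes the proliferation antigen Ki-67, was at 10.61 in KO head and 10.71 in WT head, and at 10.70 in KO shelves and 10.82 in WT shelves.

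Across genes, the head and the shelf differences ran against each other among the mitosis genes. Over 21 mitosis genes, Pearson's r between the differences was -0.58 and Spearman's rho -0.56, and over 16 replication genes they were -0.070 and -0.091. Over the 67 further mitosis genes listed below, r was -0.21 and rho -0.32. Over the 39 further replication genes, r was 0.35 and rho 0.32, so the relation varied between lists. Over all 10814 genes r was 0.10. Both differences use different arrays, but genes are not independent replicates, all values rest on 4 arrays, and the correlation is a description.

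**Figure D3:**
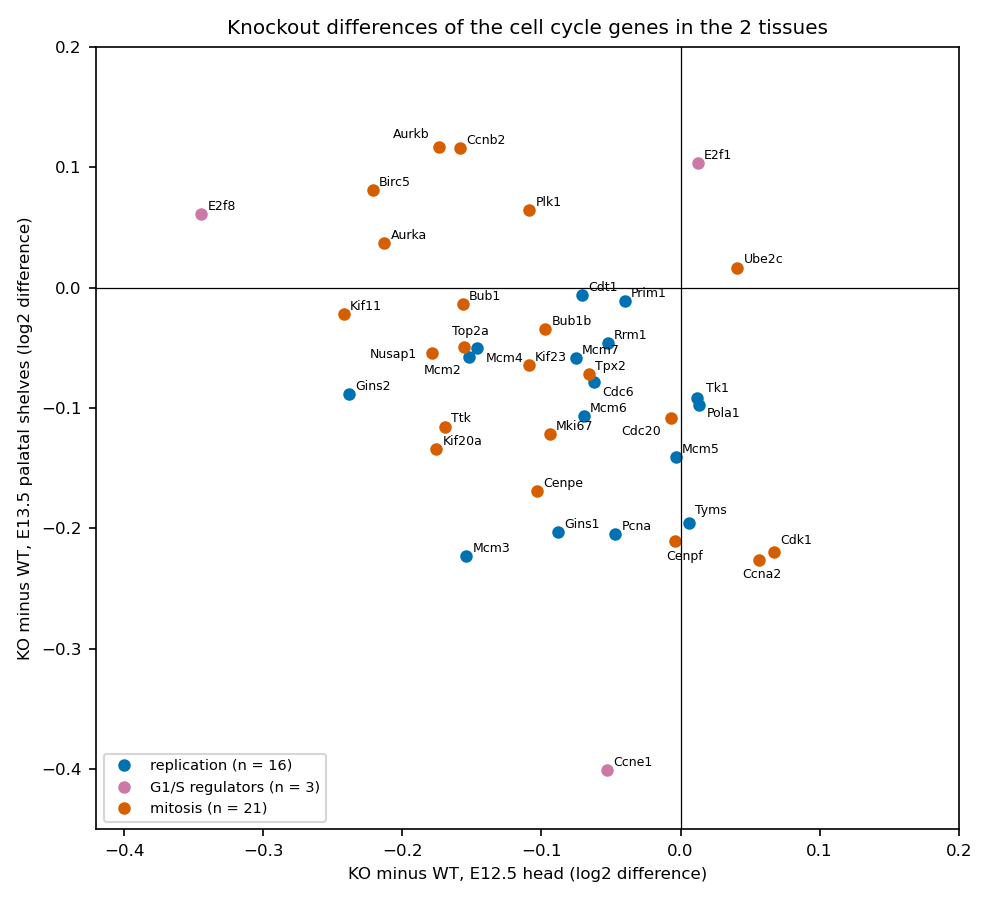
KO minus WT difference (log2) in the E12.5 head (horizontal axis) against that in the E13.5 palatal shelves (vertical axis), 1 labelled point per gene, coloured by class. The field below 0 in both tissues holds 27 of the 40 genes, with Aurkb, Ccnb2, Birc5, Plk1, Aurka and E2f8 above it and Cdk1 and Ccna2 to its right.

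The class with the lower median differed between the tissues. In the head, the median was -0.066 over 16 replication genes and -0.11 over 21 mitosis genes, so replication minus mitosis was 0.043. In the shelves, the medians were -0.090 for replication and -0.055 for mitosis, a gap of -0.035. Neither gap was tested. In the mean of both tissues, the medians were -0.080 and -0.085, beside 0.0047 over all genes. The further genes listed below did not show this switch. Their medians for mitosis and replication were -0.13 and -0.087 in the head, and -0.042 and -0.022 in the shelves.

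**Figure D4:**
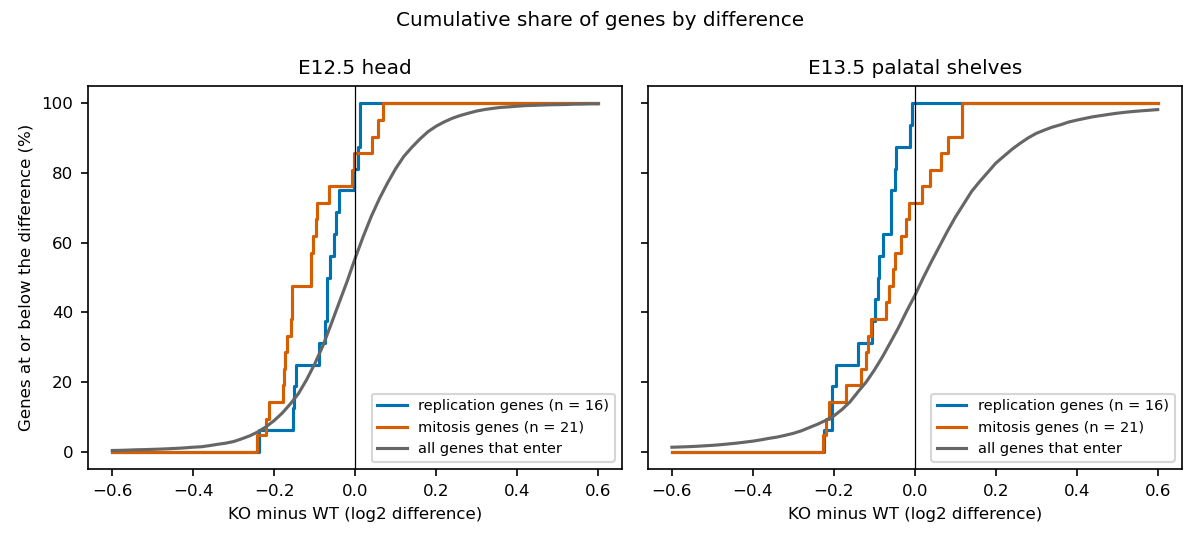
Cumulative share of genes (vertical axis, percent) at or below each KO minus WT difference (horizontal axis, log2) for 16 replication genes, 21 mitosis genes and all genes that entered, in the E12.5 head (left) and the E13.5 palatal shelves (right). The lines of both classes lie left of the line of all genes around 0 and are steeper, with no gene of the 2 classes beyond 1.2-fold. The mitosis line leads in the head over most of the range below 0. The replication line reaches 100% first in both panels.

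No cell cycle gene passed a test of genotype over both tissues. An additive limma fit of genotype and tissue was run on 11999 genes, with 1 residual degree of freedom and Benjamini-Hochberg adjustment. At an adjusted p of 0.05, 0 of the 40 genes passed, as did 0% of all genes. Without adjustment, 0 of the 40 lay under 0.05, against 5.23% of all genes. The fitted genotype difference was below 0 for 38 of the 40 genes, against 48.4% of all genes, with a median of -0.086 (1.06-fold). The SE of a single gene, 0.099 to 0.127, was larger than most of these differences. The lowest were Ccne1 at -0.23 (SE 0.12) and Mcm3 at -0.19 (SE 0.100), for both of which the limma adjusted p was 0.929. Next came Gins2 (-0.16, SE 0.10) and Kif20a (-0.155, SE 0.099), where it was 0.961. E2f1 (0.058) and Ube2c (0.029) were the 2 above 0.

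Between tissues, levels of the cell cycle genes spread less than those of all genes, with an SD of the difference over genes of 0.149 for the 40 and 0.55 for all. The difference was below 0 for 28 of the 40, against 52.8% of all genes. The same limma fit gave the shelves minus head difference, in which tissue and stage cannot be told apart. E2f1 was lower in the shelves, with levels of 6.95 in KO shelves and 6.85 in WT shelves, against 7.28 in KO head and 7.26 in WT head. Its difference was -0.37 (SE 0.10, limma adjusted p = 0.0372), and the limma adjusted p ranged from 0.0258 to 0.114 over the 9 settings in which the gene entered, passing in 7 of them. It was the 1 of 40 genes to pass, where 27.9% of all genes did (13% higher and 14.9% lower), and 6 of the 40 had an unadjusted p under 0.05, where 40.2% of all genes did. From 1.2-fold on, 3 were lower (E2f1, Mcm2 and Ube2c) and 0 higher, against 20.9% of all genes lower and 19.1% higher.

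Mcm2 was at 9.09 in KO shelves and 9.14 in WT shelves, against 9.35 in KO head and 9.51 in WT head, a difference of -0.31 (SE 0.10, limma adjusted p = 0.0606). Both shelf arrays lay below both head arrays. Ube2c was at 8.74 in KO shelves and 8.73 in WT shelves, against 9.03 in KO head and 8.99 in WT head (-0.28, SE 0.099, limma adjusted p = 0.0827). Mcm7 (-0.25) and Gins1 (-0.25) were the next lowest, and the other MCM genes lay between -0.046 and 0.096. Pola1 had the highest difference, 0.25 (SE 0.10, limma adjusted p = 0.119), with 8.49 in KO shelves and 8.59 in WT shelves, against 8.30 in KO head and 8.29 in WT head.

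Ccne1 (0.22) and E2f8 (0.13) had values above 0 that did not pass. The highest mitosis genes were Cdk1 (0.16), Mki67 (0.10) and the topoisomerase gene Top2a (0.072). The lowest after Ube2c were Cdc20 (-0.23), Bub1b, which encodes a checkpoint kinase (-0.22), and Ccnb2 (-0.22). Medians of the shelves minus head difference were -0.034 for replication and -0.10 for mitosis genes, beside -0.020 for all genes. The gap between the classes was 0.10 between the wild-type arrays alone and -0.015 between the knockout arrays alone, so its sign differed between the genotypes.

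**Figure D5:**
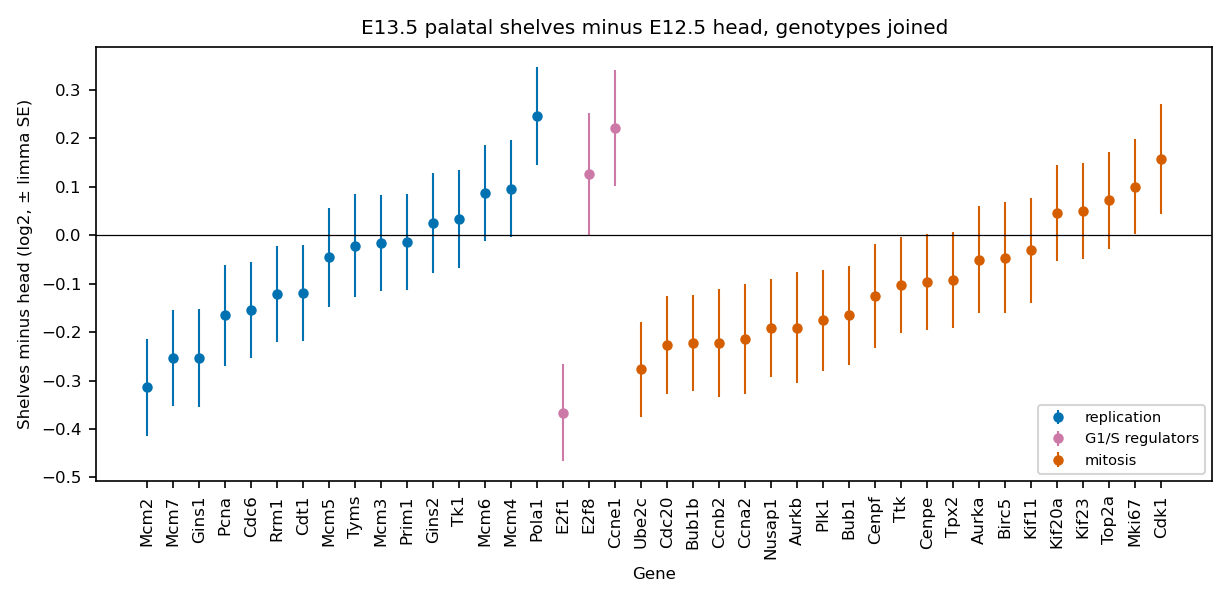
Shelves minus head difference (vertical axis, log2) of each of the 40 genes from the limma fit that joins genotypes, with bars of 1 limma SE on either side, in order within each class. Values run from -0.37 for E2f1 to 0.25 for Pola1, and E2f1 alone passed an adjusted p of 0.05.

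Rrm2, the small subunit of ribonucleotide reductase and the limiting one in S phase, depends on which row is read. Its brighter row was at 8.37 in KO head and 8.69 in WT head, and at 7.87 in KO shelves and 7.85 in WT shelves. The head difference of that row was -0.31, the shelf difference 0.021, and shelves minus head -0.67. The other row lay between 2.71 and 2.89 on all 4 arrays, far under the limit for entry, and pulled the average under it. Read from the brighter row alone, Rrm2 had the largest shelves minus head difference of all these genes (limma adjusted p = 0.0092).

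Other genes of the same pathways were given by lists written by name, with results of these arrays known. Of 67 further mitosis genes that entered in the head, 57 were below 0 with a median of -0.13, against 55.5% of all genes and a median of -0.017. From 1.2-fold on, 8 of the 67 were lower, against 4.4% of all genes, led by Incenp, the scaffold of the chromosomal passenger complex (7.68 in KO head and 8.11 in WT head), and Fam83d, a spindle protein (7.16 in KO head and 7.56 in WT head). Of 39 further replication genes, 31 were below 0 with a median of -0.087, against the same 55.5%. Pold2, a subunit of polymerase delta, had the lowest value, with 8.50 in KO head and 9.02 in WT head. Rpa3, a subunit of the single-strand binding protein RPA, was above 0, with 8.23 in KO head and 7.96 in WT head. Of 25 genes of G1/S control, 23 were below 0 (median -0.10), with Cdc25a, the phosphatase that activates Cdk2, at 8.40 in KO head and 8.73 in WT head.

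In the shelves, where 44.8% of all genes were below 0 and their median was 0.021, the values were nearer to 0. Below 0 were 44 of 67 further mitosis genes (median -0.042), 22 of 39 further replication genes (-0.022) and 18 of 23 genes of G1/S control (-0.057). Kifc1, a minus-end kinesin, was at 6.64 in KO shelves and 6.15 in WT shelves, and Ncapg2, a condensin II subunit, at 7.73 in KO shelves and 8.09 in WT shelves. Rpa3 was above 0 here too, by 0.40. Among cell cycle inhibitors, 10 of 11 in the head and 7 of 10 in the shelves were below 0. Cdkn1a, which encodes the inhibitor p21, was at 9.12 in KO shelves and 9.70 in WT shelves (-0.58), and at 8.56 in KO head and 8.68 in WT head. None of these genes passed the limma test of genotype, and 1 gene in each of the 4 lists had an unadjusted p under 0.05.

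Between tissues, 13% of all genes passed the limma test as higher in the shelves and 14.9% as lower. Of the lists, 0 of 25 genes of G1/S control passed higher and 3 lower, 1 of 11 inhibitors higher and 4 lower, 1 of 67 further mitosis genes higher and 4 lower, and 1 of 39 further replication genes higher and 0 lower. Rb1, the retinoblastoma gene, had a shelves minus head difference of -0.91 (SE 0.10, limma adjusted p = 0.0011) and the cyclin D1 gene Ccnd1 one of -0.76 (SE 0.10, limma adjusted p = 0.0026). Cdkn1a was higher in the shelves (0.79, SE 0.13, limma adjusted p = 0.0058).

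Markers of other cell types also differed between the knockout and wild-type arrays, some lists in 1 tissue only. Like all other genes in the fit, none of them passed the limma test of genotype. Skeletal muscle markers had a median of -0.61 in the head (20 of 20 below 0) and -1.04 in the shelves (17 of 17 below 0), and their summed linear level was 2140 in KO head and 3389 in WT head, and 1559 in KO shelves and 3034 in WT shelves. Neuron markers had a median of 0.0079 in the head and of 0.60 in the shelves, where 15 of 16 were above 0, with a summed level of 5679 in KO shelves and 3893 in WT shelves. Neural progenitor markers summed to 7124 in KO head and 7780 in WT head (10 of 13 below 0). In the shelves they summed to 3895 in KO and 4126 in WT (6 of 10 below 0). The shelf sums rest largely on Vim and Sox2, the brightest of the list there. Single markers differed more in the shelves, from -1.19 for Emx2 to 1.15 for Sox1. Erythroid markers were below 0 in 7 of 7 cases in the head, with a summed level of 6023 in KO head and 7494 in WT head. In the shelves 1 of 3 was below 0 (median 0.022), with a summed level of 2365 in KO and 2163 in WT. Hypoxia and glycolysis genes were above 0 in 10 of 10 cases in the shelves (median 0.75) and in 5 of 9 in the head. Endothelium markers were above 0 in 10 of 11 cases in the shelves (median 0.23), with a summed level of 4171 in KO shelves and 3609 in WT shelves, and in 7 of 12 cases in the head. Oral epithelium markers were below 0 in 8 of 11 cases in the shelves, with a summed level of 3325 in KO shelves and 3504 in WT shelves, and in 3 of 8 in the head.

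Markers of palate and brain separated the tissues. All 11 oral epithelium markers and 10 of 12 palatal mesenchyme markers passed the limma test as higher in the shelves, and all 16 neuron markers as lower. Of 13 neural progenitor markers, 12 passed as lower in the shelves, while the 40 cell cycle genes had a median difference of -0.095. Palatal mesenchyme markers summed to 14960 in KO shelves and 13410 in WT shelves. Of these markers, 11 of 12 were above 0 in the knockout shelves, where 44.8% of all genes were below 0. Macrophage and leukocyte markers were below 0 in 6 of 7 cases there, with a summed level of 1203 in KO shelves and 1510 in WT shelves. The part of each of these cell types in the differences of the cell cycle genes was not tested.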

How the data were processed

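Gene expression in 4 mouse embryo samples was read on Affymetrix Mouse Gene 2.0 ST arrays, 1 array a group. Each row of the deposited table is a transcript cluster with its log2 level. Per the submitters' processing notes, the authors used RMA and Affymetrix Expression Console, whose versions are not stated there. RMA includes quantile normalization, which removes a shift shared by most genes. Values ran from 1.63 to 13.55. The small number of arrays limits the precision.

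Groups came from the sample titles. In 1 other field the E13.5 samples are called heads. The labels do not say whether samples came from separate litters. With 1 array a group, the only residual of the limma fit is how far a gene's genotype difference disagrees between head and shelves. The p-values and SEs rest on that disagreement, moderated over all genes, and measure no spread between embryos. Rows were named by the platform annotation: of 41345 rows, 23521 had 1 symbol (22180 genes after averaging), 1814 several and 16010 none listed. By Entrez identifier 23328 matched a RefSeq table, with 0 symbols changed.

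Knockout minus wild-type differences were counted from 1.2-fold (0.263 on the log2 scale), with no test. limma 3.58.1 in R 4.3.3 fitted genotype and tissue additively (lmFit, eBayes, prior of 5.49 degrees of freedom and SD 0.107, threshold 0.05), and the fit was tested on simulated data. Motifs were searched with Python 3.11.15. The genes named in full were those at least 1.2-fold different in a pair, those passing the limma threshold, and the 3 lowest and 3 highest of each class per comparison. Of the pathway lists up to 4 genes per pair were eligible. The members, lists, the 1.2-fold limit and alternatives were chosen with earlier results of these data known. The grouping of members by role and the 2 sex-linked genes were added after the values were seen. Alternatives were other scalings, the brightest row of a gene, other filters on dim genes, 1.5-fold and 2-fold limits, means, other class borders, and a trended, robust or common variance in limma.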

Additional observations from a re-analysis of the deposited data

Results flagged for a closer look

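E2f8 had a knockout minus wild-type difference of -0.34 in the head and of 0.061 in the shelves, opposite directions in the 2 tissues. For the median over replication genes minus that over mitosis genes, the head pair gave 0.043 and the shelf pair -0.035. With 1 array a group, neither contrast between the tissues was tested. Among the further replication and mitosis genes, mitosis had the lower median in both pairs.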

How the results depend on the processing

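The median difference of the cell cycle genes stayed below 0 in both tissues under every scaling, filter and summary tried. It lay between -0.11 and -0.061 in the head and between -0.101 and -0.052 in the shelves. Under the 4 scalings, the median of all genes ranged from -0.036 to 0.0040 in the head and from -0.014 to 0.039 in the shelves. These shifts are not small beside the cell cycle medians. The cell cycle median minus that of all genes was between -0.074 and -0.063 in the head. In the shelves it was between -0.090 and -0.088. The fitted genotype difference was below 0 for 38 of 40 genes under each of the 3 other scalings. Some small families changed sign with the scaling. With arrays centred, quantile normalized again and under cyclic loess, 3, 0 and 1 of 3 nucleotide enzymes were below 0 in the head (1 as deposited). For the polymerase and clamp genes, 3, 1 and 2 of 3 were (2 as deposited), and for Cdc20 and Ube2c 1, 0 and 0 of 2 (1 as deposited). In the shelves, 2, 4 and 3 of 6 mitotic kinases were below 0 (3 as deposited), with medians of 0.029, -0.025 and -0.0005 (0.012 as deposited), and 1, 2 and 1 of 2 for Cdc20 and Ube2c (1 as deposited). With 40 or 41 genes entering, the number below 0 ranged from 28 to 37 in the head and from 29 to 34 in the shelves, and with the upper-quartile filter it was 28 of 34 in the head and 27 of 33 in the shelves. Counted from 1.5-fold or from 2-fold, 0 genes were lower in either tissue. With the brightest row of a gene, 2 were lower by 1.2-fold in the head (E2f8 and Rrm2), and with the upper-quartile filter (7.791), which leaves Ccne1 out, 0 were in the shelves. No setting of the limma fit called any of these genes for genotype, and the smallest adjusted p of a gene among them ranged from 0.756 to 0.9998, although all genes passing numbered 11 with a trended variance and 150 with 1 common variance. For shelves minus head, the genes passing as lower numbered 5 with a trend (E2f1, Mcm2, Mcm7, Cdc20 and Ube2c), 2 with the brightest row (E2f1 and Rrm2), 2 with the upper-quartile filter (Mcm2 and Ube2c), and 0 with no filter or with 1 common variance. Replication minus mitosis in the head was 0.028 after quantile normalization again and 0.067 without Mki67, Top2a and Ccna2. For shelves minus head it was 0.034 with means and -0.015 between the knockout arrays alone; the cause was not tested. No paired analysis was possible because the labels give no replicate numbers; the limma fit compares genotypes within each tissue through its tissue term. Leaving out an array leaves no residual degrees of freedom.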

Other observations

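Some rows carry the name of a cell cycle gene together with that of another gene, and were left out of the counts. The row shared by Ccne2 and Ints8, a subunit of the Integrator complex, was at 7.47 in KO head and 7.67 in WT head, and at 7.55 in KO shelves and 7.83 in WT shelves, below 0 in both tissues like Ccne1. The row shared by Nusap1 and Oip5 was at 5.89 in KO head and 6.30 in WT head, a difference of -0.41, whereas the row of Nusap1 alone had -0.18. The 2 rows shared by Top2a and Taf1d had head differences of -0.23 and -0.13, beside -0.16 for Top2a alone.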
